A study of Homo sapiens with 6 samples.

Results

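The interferon-stimulated effector genes are the genes whose protein products carry out the antiviral response that interferons set off in a cell. They were taken from a list of 57 gene names, and a listed gene was kept when its estimated count reached 10 in at least 1 of the 6 libraries. By this rule 56 genes were members, among 16734 genes of the whole table that reached the same count and 58884 genes in all. The names had been put together with earlier results of these libraries known, in particular that the SiCIRBP libraries differ among themselves, so the per-library levels below are a description. No listed name fell below the threshold, and the member nearest to it was GBP2, with a highest count of 34. RNF213 was the 1 listed name not found. A row with its Ensembl identifier stood in the table under another name and was not counted as a member.

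RNA-seq had been carried out on human immortalized ventricular cardiomyocytes transfected with siRNA. In the 3 NC libraries this was a negative control siRNA, and in the 3 SiCIRBP libraries it targeted CIRBP, the cold-inducible RNA-binding protein. The labels name the line T0519, whereas the study's text names AC16. Both are immortalized lines, no drug treatment is given for these libraries, and the labels do not say that the libraries of a group came from separate cultures, so that p-values measure the spread between these libraries, which may be technical. The study set NC_1 and SiCIRBP_2 aside, and the comparison over 4 libraries below used the others (NC_2, NC_3, SiCIRBP_1 and SiCIRBP_3).

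Library totals ranged from 25726259 to 29919566 estimated counts. CIRBP was lower in each SiCIRBP library than in each NC library, with normalized counts (CPM, the count divided by the TMM-scaled library size) of 86.3, 85.7 and 90.9 in NC_1, NC_2 and NC_3, and of 54.7, 24.3 and 46.2 in SiCIRBP_1, SiCIRBP_2 and SiCIRBP_3. Of 14 cardiomyocyte markers, 4 reached 10 counts in at least 1 library (GATA4, ACTN2, NKX2-5 and TNNI3), and MYH6, MYL2 and RYR2 had 0 counts in every library. TNNT2, MYH7 and MYL7 had at most 3 counts. Of 6 fibroblast markers, COL1A1, PDGFRA and THY1 were abundant in every library, DCN had between 15 and 41 counts, POSTN between 1 and 14, and LUM 0. Of 12 immune cell markers, 2 (CD68 and CD14) reached 10 counts, the pan-leukocyte gene PTPRC had at most 5, and CD3D, CD3E, MS4A1 and CLEC4C had 0 counts in all 6 libraries.

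Interferons are secreted proteins that a cell makes when its sensors detect foreign nucleic acid. Type I and type III interferons bind receptors that activate the JAK kinases. These in turn activate a transcription factor complex that contains IRF9 and binds the interferon-stimulated response element (ISRE) in the promoters of the effector genes. The effectors act at different steps of an infection. IFITM proteins act at membranes during entry, and OAS, IFIT and PKR (EIF2AK2) proteins act on viral RNA and its translation. MX1 acts on viral ribonucleoproteins, and BST2 holds particles at the cell surface. ISG15 is a ubiquitin-like protein that is attached to other proteins by a cascade of enzymes.

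The response element was looked for in the promoters of the members. The rule did not use sequence, but the names were chosen as interferon-stimulated genes, a class known for this element. A high share therefore follows from the choice of names and is no result of these libraries. Promoter windows of RefSeq on GRCh38.p14, from 250 bases before to 50 bases after a start site, were found for 44 of the 56 members. The core of the element, GAAA followed by any 2 bases and a further GAAA, on either strand, was present in 32 of these 44 members (72.7%), against 4.38% of 27305 genes with a window. A longer form, the core followed directly by CT, was added after the values were seen, was present in 18 members (40.9%), against 0.322% of genes. The core of the gamma-activated site, TTC followed by any 3 bases and GAA, was present in 12 members (27.3%) and in 9.38% of genes. The 6 stretches below were chosen after the values were seen, as examples whose matches lie before the start site and outside annotated exons of the gene. They show pairs and triplets of the core in genes of 4 role classes, each 5′ to 3′ along the strand of its gene, with the bases of each match in capitals.
ISG15 (chr1:1013369-1013414, plus strand): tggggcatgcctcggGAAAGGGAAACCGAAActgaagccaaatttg
HERC5 (chr4:88456979-88457069, plus strand): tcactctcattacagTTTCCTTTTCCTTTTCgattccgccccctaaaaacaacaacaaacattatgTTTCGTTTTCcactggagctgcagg
BST2 (chr19:17405730-17405775, minus strand): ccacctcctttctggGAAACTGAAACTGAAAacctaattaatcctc
IFI6 (chr1:27672261-27672363, minus strand): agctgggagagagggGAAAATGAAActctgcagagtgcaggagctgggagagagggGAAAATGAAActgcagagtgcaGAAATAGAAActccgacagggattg
IFI27 (chr14:94110613-94110665, plus strand): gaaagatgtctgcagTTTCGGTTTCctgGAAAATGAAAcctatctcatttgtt
IFIT1 (chr10:89392492-89392544, plus strand): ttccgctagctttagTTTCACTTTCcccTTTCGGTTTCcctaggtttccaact
In ISG15, HERC5 and BST2 a pair of matches overlaps, so that 1 GAAA block, or its reverse complement TTTC, is shared between neighbouring matches. In GENCODE 29 the stretches of ISG15 and IFI27 lie in an intron of a longer transcript of the gene, and those of HERC5, BST2, IFI6 and IFIT1 lie outside the gene.

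Each library was then set against the mean of the 3 NC libraries as a difference of log2(CPM + 1), with the members shown 1 library at a time. The added 1 makes this difference smaller than the log2 ratio of CPM for low genes, and at least 2-fold means a difference of at least 1 on this scale. The 3 SiCIRBP libraries did not move together. In SiCIRBP_2 the median difference of the 56 members was 2.73 and all 56 lay above each of the other 5 libraries. In SiCIRBP_3 the median difference was 0.38, and in SiCIRBP_1 it was -0.64, below NC. The medians over all 15217 genes that passed the expression filter were -0.01, -0.00 and -0.00 for SiCIRBP_2, SiCIRBP_3 and SiCIRBP_1.

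**Figure D1:**
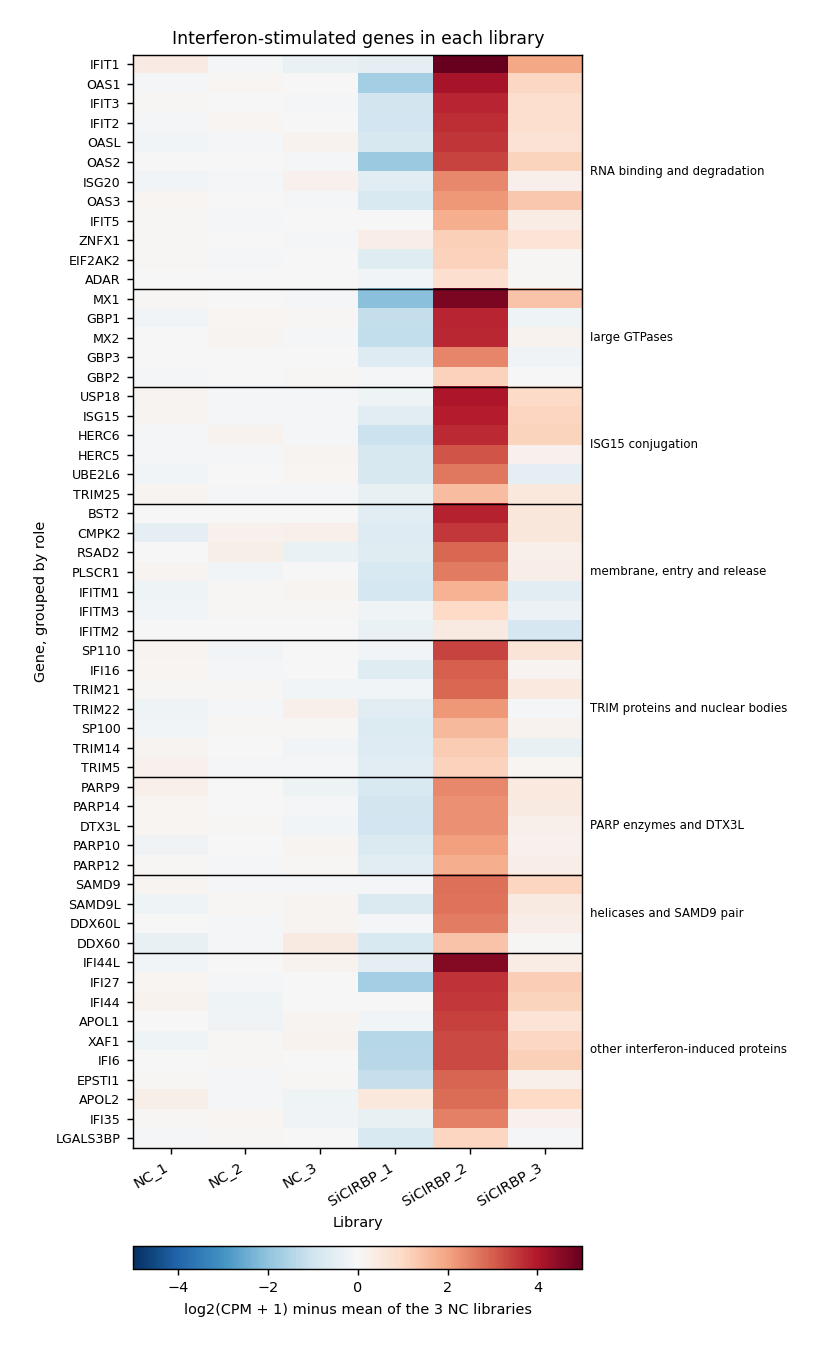
Difference of log2(CPM + 1) from the mean of the 3 NC libraries (colour, log2 units) for each of the 56 genes (rows, grouped by role and ordered by SiCIRBP_2) in each library (columns). The SiCIRBP_2 column is red throughout, from 0.44 to 5.01, the SiCIRBP_1 column is mostly blue, and the SiCIRBP_3 column holds both colours.

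The members took 0.202%, 0.199% and 0.201% of all counts in NC_1, NC_2 and NC_3. Their share was 0.146% in SiCIRBP_1, 0.98% in SiCIRBP_2 and 0.259% in SiCIRBP_3. The NC libraries thus agreed closely, and each SiCIRBP library stood at a level of its own. The median over members of the SD of log2(CPM + 1) was 0.122 within NC, where all genes gave 0.119, and 1.69 within SiCIRBP, where all genes gave 0.231.

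In SiCIRBP_2, 53 of 56 members were at least 2-fold above the NC mean and 0 were 2-fold below it, where 4.20% of all genes were at least 2-fold higher and 5.13% lower. GBP2, which reached 10 counts in SiCIRBP_2 alone and did not pass the expression filter behind these shares, is among the 53. Without it the count was 52 of 55 and the median difference 2.77. The 3 members that stayed under 2-fold were ADAR (0.83), IFITM3 (0.98) and IFITM2 (0.44). Members made up 33 of the 50 genes and 41 of the 100 genes with the highest difference in this library. All 56, GBP2 included, lay above each NC library, as did 40.3% of all genes, and above each of the other 5 libraries, which was so for 31.0% of all genes.

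In SiCIRBP_1, 10 members were at least 2-fold below the NC mean and 0 were 2-fold above it (0.959% and 0.414% of all genes). Below each of the 3 NC libraries lay 48 members (36.0% of all genes), and above each of them lay 2, ZNFX1 and APOL2 (35.8%). The differences ran from -2.07 for MX1 to 0.53 for APOL2.

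In SiCIRBP_3, 12 members were at least 2-fold above the NC mean and 0 were 2-fold below it (0.946% and 0.913% of all genes). Above each NC library lay 42 members (37.1% of all genes), and below each lay 7 (37.6%). These 7 were IFITM1, IFITM2, IFITM3, UBE2L6, GBP1, GBP3 and TRIM14. The order with SiCIRBP_1 below every NC library, SiCIRBP_3 above every NC library and SiCIRBP_2 highest was found in 35 members, against 2.13% of all genes.

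**Figure D2:**
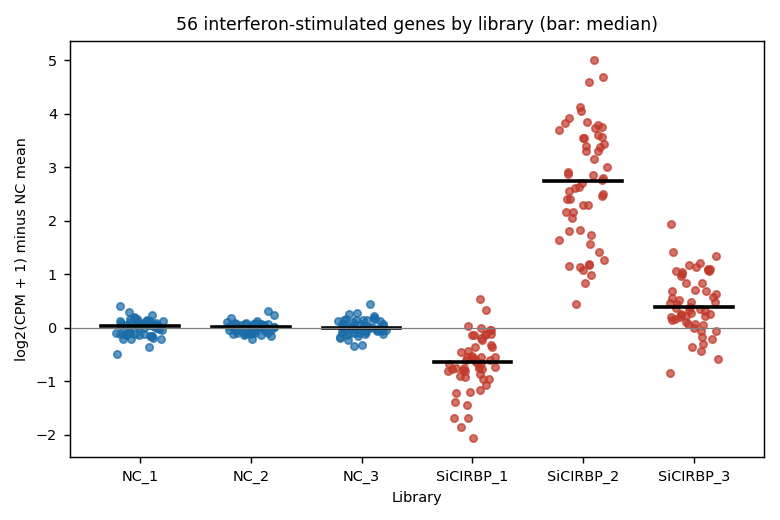
Each point is 1 of the 56 genes, plotted by library as the difference of log2(CPM + 1) from the NC mean (log2 units), with NC in blue, SiCIRBP in red and a black bar at the median. The NC libraries lie close to 0, and the medians of SiCIRBP_1, SiCIRBP_2 and SiCIRBP_3 are -0.64, 2.73 and 0.38.

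The ISG15 conjugation genes (6 members) had a median difference of 3.44 in SiCIRBP_2, -0.68 in SiCIRBP_1 and 0.74 in SiCIRBP_3. ISG15, the ubiquitin-like protein itself, had 85.5, 74.0 and 73.9 CPM in NC, 52.7 in SiCIRBP_1, 1183 in SiCIRBP_2 and 164 in SiCIRBP_3. USP18, the protease that removes ISG15 and dampens interferon receptor signalling, had 8.80, 7.76 and 7.58 CPM in NC, 6.74 in SiCIRBP_1, 148 in SiCIRBP_2 and 16.6 in SiCIRBP_3. Both genes were lowest in SiCIRBP_1 and highest in SiCIRBP_2, with SiCIRBP_3 about 2-fold above NC. TRIM25, a ubiquitin ligase that acts on the RNA sensor RIG-I, differed less, from 80.7, 70.2 and 67.4 CPM in NC to 55.9 in SiCIRBP_1, 215 in SiCIRBP_2 and 104 in SiCIRBP_3. UBE2L6, the conjugating enzyme for ISG15, was the exception in SiCIRBP_3. It had 10.4, 12.0 and 12.7 CPM in NC, 6.23 in SiCIRBP_1, 77.1 in SiCIRBP_2 and 8.33 in SiCIRBP_3, so that SiCIRBP_1 and SiCIRBP_3 both lay below NC. HERC5 and HERC6 were 11.7 and 15.6 times the NC mean in SiCIRBP_2. Of the transcript sequence of USP18, 31.3% in words of 30 bases is shared with other genes, mainly USP41, so its counts are uncertain in that respect.

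Among the 12 genes of RNA binding and degradation, 11 were at least 2-fold higher in SiCIRBP_2 and 2 (OAS1 and OAS2) at least 2-fold lower in SiCIRBP_1. ADAR, which edits adenosine in double-stranded RNA, had the highest CPM of them and the smallest difference in SiCIRBP_2. It had 304, 302 and 293 CPM in NC, 270.5 in SiCIRBP_1, 533 in SiCIRBP_2 and 315 in SiCIRBP_3. OAS3, a synthase of the 2′-5′ oligoadenylates that activate RNase L, had 79.7, 74.1 and 68.0 CPM in NC, 42.8 in SiCIRBP_1, 334 in SiCIRBP_2 and 188 in SiCIRBP_3. ZNFX1, a helicase-like RNA sensor, had 143, 133 and 132 CPM in NC, 172 in SiCIRBP_1, 311 in SiCIRBP_2 and 219 in SiCIRBP_3. Its SiCIRBP values all lay above its NC values, unlike those of ADAR and OAS3, whose SiCIRBP_1 value was the lowest of the 6.

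IFIT1, which binds RNA that lacks the methylation of host caps, is named here because it had the highest difference of any member in SiCIRBP_2 and in SiCIRBP_3. Its CPM was 21.1, 14.9 and 12.1 in NC, 11.3 in SiCIRBP_1, 534 in SiCIRBP_2 and 62.8 in SiCIRBP_3, which is 33.4 and 3.92 times the NC mean in the latter libraries. IFIT2, IFIT3 and IFIT5, its neighbours on chromosome 10, were 14.0, 14.4 and 3.64 times the NC mean in SiCIRBP_2. IFIT5 stood at 0.995 times the NC mean in SiCIRBP_1, where IFIT2 and IFIT3 stood at 0.472 and 0.513. The OAS genes on chromosome 12 differed in the same library, with OAS1 at 0.220, OAS2 at 0.248, OASL at 0.551 and OAS3 at 0.579 times the NC mean. EIF2AK2, the RNA-activated kinase PKR, was 2.23 times the NC mean in SiCIRBP_2 and the exonuclease gene ISG20 5.56 times.

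**Figure D3:**
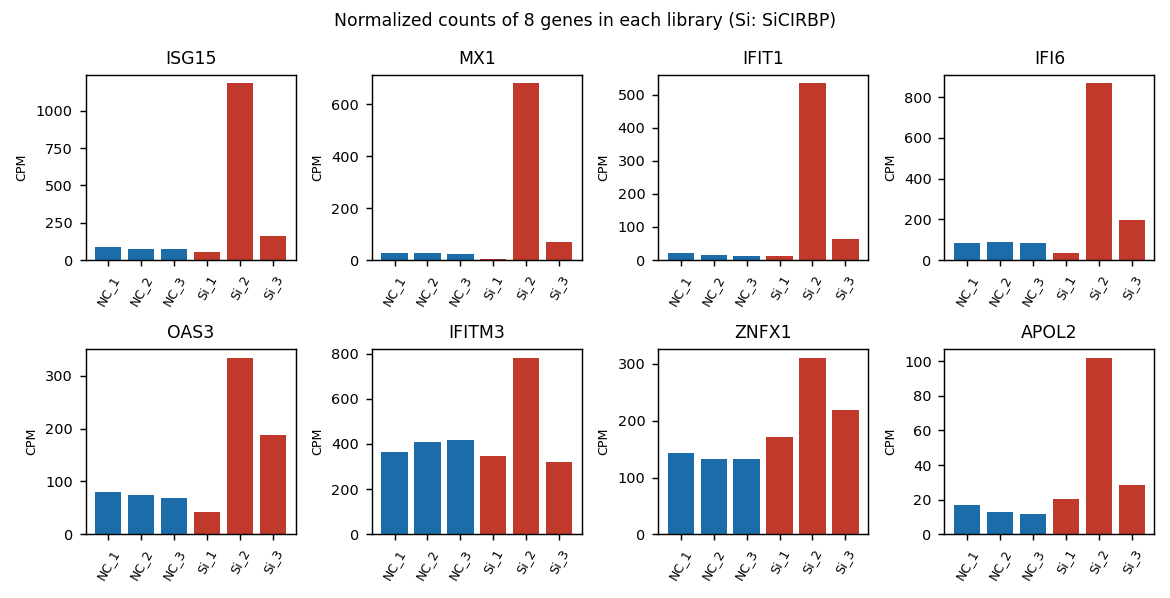
Normalized counts (CPM, linear axes that start at 0 and differ between panels) of ISG15, MX1, IFIT1, IFI6, OAS3, IFITM3, ZNFX1 and APOL2 in the 3 NC libraries (blue) and the 3 SiCIRBP libraries (red, Si). SiCIRBP_2 is the tallest bar in every panel, and in ZNFX1 and APOL2 all 3 SiCIRBP bars lie above the NC bars.

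The large GTPases (5 members) were the class furthest below NC in SiCIRBP_1, with a median difference of -1.20, and their median in SiCIRBP_2 was 3.75 (-1.21 and 3.79 over the 4 without GBP2). MX1, which forms assemblies that trap viral ribonucleoproteins, had 26.5, 25.5 and 24.1 CPM in NC, 5.27 in SiCIRBP_1, 679.6 in SiCIRBP_2 and 69.1 in SiCIRBP_3. MX2 had 2.84, 3.20 and 2.59 CPM in NC, 0.650 in SiCIRBP_1, 51.1 in SiCIRBP_2 and 3.42 in SiCIRBP_3. Between its lowest and its highest library MX1 thus ran from 0.208 to 26.8 times the NC mean. In SiCIRBP_3 MX2 stood at only 1.19 times the NC mean, and the guanylate-binding protein genes did not follow MX1 there either. GBP1 had 2.07, 2.60 and 2.56 CPM in NC, 0.479 in SiCIRBP_1, 47.3 in SiCIRBP_2 and 1.92 in SiCIRBP_3, and GBP3 stood at 0.745 times the NC mean there. GBP2 had at most 2 counts in the NC libraries, 0 in SiCIRBP_1, 34 in SiCIRBP_2 and 1 in SiCIRBP_3, and its level outside SiCIRBP_2 was not measurable at this depth. The share of transcript sequence that occurs in other genes was between 12.4% and 19.1% for the GBP members.

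The membrane, entry and release genes (7 members) held the most abundant member per transcript length. By mean TPM in NC, IFITM3 had the highest level of the members (1488), followed by IFITM1 (294) and ISG15 (268), and in SiCIRBP_2 ISG15 was the highest, with 3424 TPM. IFITM3, which blocks fusion of virus in endosomes, had 365, 409 and 417 CPM in NC, 347 in SiCIRBP_1, 782 in SiCIRBP_2 and 319.7 in SiCIRBP_3. IFITM1, which acts nearer the cell surface, had 81.1, 98.3 and 104 CPM in NC, 51.1 in SiCIRBP_1, 316 in SiCIRBP_2 and 62.5 in SiCIRBP_3. In both genes SiCIRBP_1 and SiCIRBP_3 lay below every NC library, and IFITM2 had the same order, at 0.790 and 0.543 times the NC mean. The IFITM genes lie side by side on chromosome 11 and share 35.4% (IFITM1), 46.0% (IFITM2) and 37.5% (IFITM3) of their transcript sequence with other genes, so the division of reads between them is uncertain. PLSCR1, a scramblase of membrane lipids, had 28.1, 23.3 and 25.6 CPM in NC, 14.7 in SiCIRBP_1, 161 in SiCIRBP_2 and 32.6 in SiCIRBP_3. BST2 (tetherin), CMPK2 and RSAD2 (viperin) had NC means of 2.03, 1.06 and 1.74 CPM and stood at 20.9, 21.0 and 10.7 times these in SiCIRBP_2.

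The TRIM proteins and nuclear body genes (7 members) were all at least 2-fold higher in SiCIRBP_2, with a median difference of 2.16, and 6 of them lay below every NC library in SiCIRBP_1. SP100, a component of PML nuclear bodies, had 38.8, 44.8 and 44.7 CPM in NC, 26.1 in SiCIRBP_1, 135 in SiCIRBP_2 and 47.8 in SiCIRBP_3. TRIM14, an adaptor in RNA sensing, had 18.2, 16.6 and 14.9 CPM in NC, 10.1 in SiCIRBP_1, 41.3 in SiCIRBP_2 and 12.7 in SiCIRBP_3. TRIM21, an intracellular antibody receptor, had 8.33, 8.46 and 7.28 CPM in NC, 7.29 in SiCIRBP_1, 65.1 in SiCIRBP_2 and 11.6 in SiCIRBP_3. TRIM14 was the class member below every NC library in SiCIRBP_3, and TRIM21 the one whose SiCIRBP_1 value fell within the NC range. Differences in SiCIRBP_2 ranged from 1.14 for TRIM5 to 3.38 for SP110.

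The PARP enzymes and DTX3L (5 members) were the most uniform class, with differences between 1.80 and 2.41 in SiCIRBP_2, between -0.95 and -0.54 in SiCIRBP_1 and between 0.22 and 0.49 in SiCIRBP_3. All 5 had the order SiCIRBP_1, NC, SiCIRBP_3, SiCIRBP_2 from low to high. PARP10, a mono-ADP-ribosyltransferase, had 39.0, 44.4 and 48.1 CPM in NC, 25.9 in SiCIRBP_1, 183 in SiCIRBP_2 and 50.9 in SiCIRBP_3. DTX3L, a ubiquitin ligase that works with PARP9, had 36.8, 36.1 and 31.1 CPM in NC, 17.3 in SiCIRBP_1, 172 in SiCIRBP_2 and 41.9 in SiCIRBP_3. PARP9, DTX3L and PARP14 lie close together on chromosome 3 and stood at 5.51, 4.95 and 5.10 times the NC mean in SiCIRBP_2.

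The helicases DDX60 and DDX60L and the SAMD9 pair (4 members) had a median difference of 2.63 in SiCIRBP_2. SAMD9, which restricts poxviruses, had 7.18, 5.82 and 6.16 CPM in NC, 5.82 in SiCIRBP_1, 49.1 in SiCIRBP_2 and 14.3 in SiCIRBP_3. DDX60L had 3.71, 3.37 and 4.13 CPM in NC, 3.56 in SiCIRBP_1, 26.9 in SiCIRBP_2 and 5.02 in SiCIRBP_3. For both, SiCIRBP_1 lay close to the lowest NC value or within the NC range, whereas SAMD9L and DDX60 stood at 0.315 and 0.420 times the NC mean there.

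The 10 other interferon-induced genes were all at least 2-fold higher in SiCIRBP_2, and 4 of them (IFI27, XAF1, IFI6 and EPSTI1) were at least 2-fold lower in SiCIRBP_1. IFI6, a membrane protein that hinders flavivirus replication, had 85.4, 90.9 and 86.2 CPM in NC, 32.9 in SiCIRBP_1, 868 in SiCIRBP_2 and 199 in SiCIRBP_3. IFI27 had 38.1, 34.5 and 35.4 CPM in NC, 10.4 in SiCIRBP_1, 446 in SiCIRBP_2 and 84.7 in SiCIRBP_3. LGALS3BP, a secreted glycoprotein, differed less, from 61.7, 68.8 and 67.6 CPM in NC to 38.8 in SiCIRBP_1, 140.1 in SiCIRBP_2 and 63.3 in SiCIRBP_3. The apolipoprotein L gene APOL2 was not below NC in SiCIRBP_1. It had 17.2, 12.9 and 11.9 CPM in NC, 20.4 in SiCIRBP_1, 102 in SiCIRBP_2 and 28.6 in SiCIRBP_3, and its neighbour on chromosome 22, APOL1, stood at 0.826 times the NC mean in SiCIRBP_1. IFI44L, from an NC mean of 0.608 CPM, had the highest ratio of any tested member in SiCIRBP_2, 61.6. Of the exon sequence of XAF1, 38.3% overlaps the gene PRAL on the other strand, and the strand setting of the counting is not given in the sources used here.

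The 2-group comparison asks whether the members differ between NC and SiCIRBP, and 55 of the 56 members passed the expression filter, GBP2 being left out. Over the 4 libraries that the study kept, edgeR's quasi-likelihood test called 0 members higher and 0 lower in SiCIRBP, where a call needed a change of 2-fold or more and a p-value below 0.05 after Benjamini-Hochberg adjustment (1.82% and 1.80% of 15421 genes were called). DESeq2 also called 0 members, with 1.31% of genes called higher and 1.64% lower. At an unadjusted p-value under 0.05 the edgeR test gave 2 members higher and 5 lower, where all genes gave 18.2% and 18.5%. The median log2 fold change of the members was -0.03. In this comparison the SiCIRBP group consists of the library in which most members were below NC and the one in which most were above.

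At an adjusted p-value under 0.05 with no limit on size, a criterion added after the values were seen, 2 members were higher and 3 lower (9.62% and 9.76% of all genes). ZNFX1 rose by 0.56 on the log2 scale (SE 0.12, edgeR adjusted p = 0.0253) and APOL2 by 0.98 (SE 0.18, edgeR adjusted p = 0.0171), each with both SiCIRBP libraries above both NC libraries. IFITM1 fell by 0.83 (SE 0.12, edgeR adjusted p = 0.00903), UBE2L6 fell by 0.76 (SE 0.18, edgeR adjusted p = 0.0323) and IFITM3 fell by 0.31 (SE 0.08, edgeR adjusted p = 0.0398). These 3 were higher than in NC in SiCIRBP_2, the library that the comparison leaves out. All 5 kept their direction but passed the adjusted threshold no longer when NC_2 or NC_3 was left out.

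Of the 55 tested members, 26 were called at the first threshold once 1 of the SiCIRBP libraries was left out, and 29 were called in neither of these fits. Without SiCIRBP_1, so that SiCIRBP_3 alone stood against NC_2 and NC_3 and was assumed to vary like NC, edgeR called 15 members higher and 0 lower (3.88% of all genes were called higher). Without SiCIRBP_3, it called 18 members lower and 0 higher (3.50% of all genes were called lower). The log2 fold change of MX1 was 0.58 over the 4 libraries, 1.47 without SiCIRBP_1 and -2.24 without SiCIRBP_3. That of IFI6 was 0.39, 1.16 and -1.43, that of ISG15 was 0.55, 1.14 and -0.49, and that of IFIT1 was 1.46, 2.22 and -0.26 in the same fits. The members called higher included IFIT1, ISG15, OAS3 and USP18, and those called lower included IFIT2, GBP1, MX2 and RSAD2. HERC6, IFI27, IFI6, MX1, OAS1, OAS2 and XAF1 were called in both fits, in opposite directions.

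Over all 6 libraries, edgeR called 0 members and 0% of 15217 genes in either direction, and the smallest adjusted p-value of any gene was 0.0853. DESeq2 called 0 members as well, with 1.15% of genes called in each direction. At an unadjusted p-value under 0.05, edgeR gave 20 members higher (12.1% of all genes) and 0 lower (11.6%), and the median log2 fold change of the members was 1.84. The log2 fold change was 3.66 for IFIT1, 3.31 for MX1 and 2.58 for ISG15, with edgeR adjusted p-values of 0.136, 0.183 and 0.165. For ZNFX1 it was 0.78 (edgeR adjusted p = 0.107) and for APOL2 1.84 (edgeR adjusted p = 0.124). Without SiCIRBP_2 the median of the members was -0.02 and edgeR called 0 of them (0.702% of all genes were called higher and 0.798% lower). At an unadjusted p-value under 0.05 this fit gave 2 members higher and 5 lower, where all genes gave 14.4% and 15.2%. Without the filter on low counts, edgeR called 19 members higher and 0 lower (0.632% and 0.568% of 28001 genes). ZNFX1 and APOL2 were the 2 members whose 3 SiCIRBP values all lay above the 3 NC values (16.2% of all genes), and 0 lay below (16.6%). An exact test of 3 against 3 libraries allows no p-value under 0.1.

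A match to the letters of the ISRE core did not divide the members by the size of their difference. The search found exact letters only, so a window without a match may still hold another form of the element. In SiCIRBP_2 the median difference was 2.58 for the 32 members with the ISRE core in their promoter window, 2.85 for the 12 without it and 3.09 for the 12 without a window. The ranges overlapped, from 0.98 to 5.01 with the core and from 0.83 to 4.13 without. In SiCIRBP_1 the medians were -0.65, -0.68 and -0.43, and in SiCIRBP_3 0.34, 0.48 and 0.69. OAS1, HERC6 and CMPK2 were among the members with a window that lacked these letters.

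**Figure D4:**
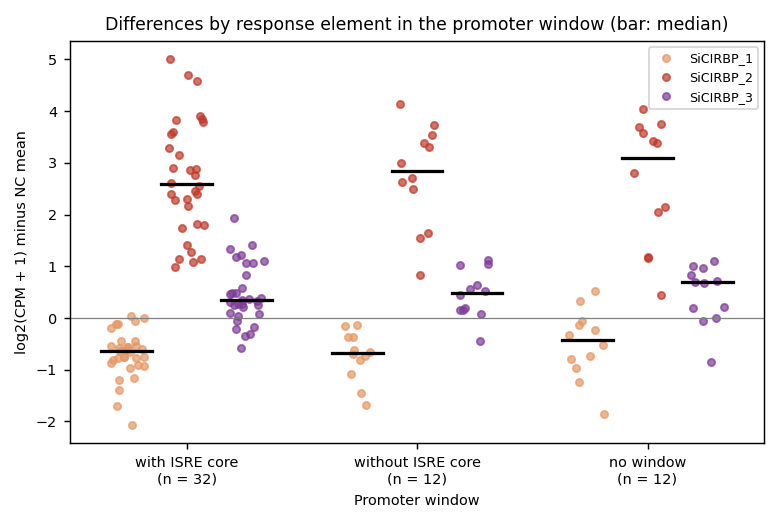
Each point is 1 member, split by the response element core in its promoter window (with, n = 32; without, n = 12; no window, n = 12) and coloured by SiCIRBP library, with the difference of log2(CPM + 1) from the NC mean on the vertical axis and a bar at the median. The 3 libraries keep their order in each set, and the sets overlap within each library.

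Transcript lengths implied by the deposited counts and TPM values were compared as a further readout, added after the values were seen. Of 39 members with at least 50 counts in every library, 4 (10.3%) differed by more than 0.3 on the log2 scale between SiCIRBP_2 and the NC mean, against 8.85% of 11560 genes. The member share was thus close to that of all genes. In SiCIRBP_2 the implied length was 0.767 times that in NC for PARP9, 1.44 for DDX60L, 1.28 for HERC6 and 1.28 for TRIM25. Shifts in the same direction were seen in SiCIRBP_1 and SiCIRBP_3 for PARP9 (-0.19 and -0.34 on the log2 scale), TRIM25 (0.24 and 0.31) and HERC6 (0.52 and 0.44). DDX60L was at 0.01 and -0.24 there. For PARP9 the NC libraries ran from -0.14 to 0.09, so its SiCIRBP_1 value lay only just outside them. IFI16, which did not pass 0.3 in SiCIRBP_2 (-0.16), was at -0.55 in SiCIRBP_1 and -0.45 in SiCIRBP_3. For HERC6 the value in SiCIRBP_2 (0.35 above the NC mean on the log2 scale) lay within the NC range, since NC_1 was at 0.41 and NC_2 and NC_3 at -0.21 and -0.20.

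The rest of the interferon pathway was described from 4 further lists. Of 21 interferon genes, 2 reached 10 counts in at least 1 library. IFNB1, the type I interferon that most cell types can make, had 0, 1 and 0 counts in NC, 0 in SiCIRBP_1, 13 in SiCIRBP_2 and 2 in SiCIRBP_3. IFNE had between 6 and 17 counts. IFNG and the lambda interferon genes had 0 counts in each library, which at this depth allows up to 3 counts, or 0.0983 to 0.117 CPM. Among 20 receptor, kinase and factor genes, 5 were at least 2-fold higher in SiCIRBP_2 and 0 in SiCIRBP_1 or SiCIRBP_3. Among these were IRF1, IRF7 and IRF9, transcription factors of the interferon response. IRF9 had 1448, 1388 and 1783 estimated counts in NC, 880 in SiCIRBP_1, 4545 in SiCIRBP_2 and 1671 in SiCIRBP_3. By contrast, the receptor gene IFNAR1 had 1346, 1133 and 1411 estimated counts in NC and 1357, 1276 and 1526 in SiCIRBP_1, SiCIRBP_2 and SiCIRBP_3. Over the 4 libraries edgeR called 0 of 19 tested genes of this list, with 1 higher and 6 lower at an unadjusted p-value under 0.05 (18.2% and 18.5% of all genes), and over the 6 it called 0, with 1 higher and 3 lower (12.1% and 11.6%). DESeq2 called 0 in each.

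Of 12 nucleic acid sensor and adaptor genes, 4 (DDX58, IFIH1, DHX58 and STING1) were at least 2-fold higher in SiCIRBP_2, and edgeR called 0 of 10 tested over the 4 libraries (1 higher and 1 lower at an unadjusted p-value under 0.05) and 0 over the 6 (1 higher and 0 lower), beside the same shares of all genes. IFIH1, the sensor MDA5, had 88, 78 and 105 estimated counts in NC, 24 in SiCIRBP_1, 1411 in SiCIRBP_2 and 196 in SiCIRBP_3, the order found in most members. Of 13 genes that interferon gamma induces more strongly, and chemokines, 4 were at least 2-fold higher in SiCIRBP_2. The chemokine gene CXCL10 had 1, 1 and 2 counts in NC, 0 in SiCIRBP_1, 70 in SiCIRBP_2 and 1 in SiCIRBP_3. Over the 6 libraries edgeR called 0 of 7 tested, with 0 higher and 0 lower at an unadjusted p-value under 0.05 (12.1% and 11.6% of all genes). Over the 4 libraries 0 were higher and 3 lower at that threshold (18.2% and 18.5% of all genes). There edgeR called 1 of the 7 lower (1.80% of all genes). This was the checkpoint ligand CD274, which fell by 2.76 (edgeR adjusted p = 0.00544). Its count was 26 in NC_1 and 115 in SiCIRBP_2, the libraries outside that comparison, against 92 and 109 in NC_2 and NC_3 and 16 and 14 in SiCIRBP_1 and SiCIRBP_3.

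Summed over the 12 immune cell markers, levels were between 9.25 and 10.4 CPM in NC and 12.0, 14.8 and 15.1 in SiCIRBP_1, SiCIRBP_2 and SiCIRBP_3, mostly from CD68, while PTPRC stayed at or below 5 counts. Markers of other lists differed as well. Of 7 endothelial markers, 4 reached 10 counts (KDR, TEK, ERG and VWF). In SiCIRBP_2, SiCIRBP_1 and SiCIRBP_3, KDR had differences of -0.57, 0.10 and 0.44, TEK -0.36, -0.88 and -0.05, and ERG 0.31, 0.16 and 0.45. VWF, with at most 16 counts, was called higher by edgeR over the 4 libraries, by 2.56 (edgeR adjusted p = 0.0369). It was not called over the 6 (edgeR adjusted p = 0.108). PDGFRA and GATA4 had differences of -1.05 and -1.08 in SiCIRBP_2, -0.31 and -0.35 in SiCIRBP_1 and -0.44 and -0.26 in SiCIRBP_3, and COL1A1 had -0.62 in SiCIRBP_2, 0.36 in SiCIRBP_1 and 1.06 in SiCIRBP_3. The other detected cardiomyocyte markers did not all follow GATA4. In SiCIRBP_2, SiCIRBP_1 and SiCIRBP_3, NKX2-5 had 0.47, -0.89 and -0.91, TNNI3 0.30, 0.42 and 0.84, and ACTN2 -0.25, -0.16 and -0.51. Over the 4 libraries edgeR called NKX2-5 lower, by 1.24 (edgeR adjusted p = 0.016). Summed over the 6 fibroblast markers, levels were between 2689 and 3420.0 CPM in NC and 3622, 1904 and 5697 in SiCIRBP_1, SiCIRBP_2 and SiCIRBP_3. Summed over the 14 cardiomyocyte markers, they were between 111 and 142 CPM in NC and 102, 74.7 and 103 in the same libraries, mostly from GATA4. The part of other cells in the members' levels was not tested. SiCIRBP_2 also had the lowest CIRBP level of the 6 libraries, and the part of the depth of the knockdown was not tested. In bulk samples a change in the number of responding cells cannot be told apart from a change in RNA per cell.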

How the data were processed

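The members and the pathway lists were chosen with earlier results of these data known. RNA-seq libraries were grouped as NC or SiCIRBP, with replicate numbers, from their labels. Per the submitters' processing notes, fastp, HISAT and RSEM were used with hg38; versions, annotation release and strand setting are not given in the sources used here. The authors deposited estimated counts, which are not normalized and need not be whole, and TPM values, scaled by transcript length and library. The authors' mean TPM, ratios (fold changes), log2 fold changes and p-values, also deposited, were not used. Counts were rounded, then tested in R 4.3.3 by edgeR 4.0.16 (TMM, filterByExpr, quasi-likelihood test, Benjamini-Hochberg adjustment over all genes tested). The SE was taken as the absolute log2 fold change over the root of F. DESeq2 1.42.0 was an alternative, with RLE size factors, other count filters, other pseudocounts, TPM, the replicate block and each library left out. Differences of single libraries used log2(CPM + 1) and carry no test. The edgeR fits were tested on simulated data that gave every library the same spread. The SiCIRBP libraries differ far more among themselves, so the simulation does not show how the fits behave for the members. Gene locations came from GENCODE 29 (58611 of 58884 identifiers matched). Values in every library are given for the 2 or 3 members of each role class with the highest mean CPM and for members past a threshold, and others named were chosen after their values were seen. Totals near these depths leave counting error large for members under about 10 counts, and 52 of 56 members had at least 10 counts in every library. A result for 1 of the pathway genes is not reported here.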

Additional observations from a re-analysis of the deposited data

How the results depend on the processing

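The order of the 3 SiCIRBP libraries kept its direction under every scaling tried. The median difference of the members was -0.79 in SiCIRBP_1 and 3.06 in SiCIRBP_2 with a pseudocount of 0.1, and -0.41, 2.17 and 0.25 in SiCIRBP_1, SiCIRBP_2 and SiCIRBP_3 with a pseudocount of 5. TPM gave 2.33 in SiCIRBP_2, where this scaling moved the median of all genes to -0.18. Calls depended on the filter, and fold changes on single libraries. Without the filter on low counts, edgeR called 2 members higher (IFI44 and IFIT1) and 1 lower (GBP1) over the 4 libraries (1.76% and 1.52% of 26574 genes), 19 higher over the 6, 1 sensor gene higher over the 6 and 2 genes of the interferon gamma and chemokine list lower over the 4, as did DESeq2 for that list (2). The cause was not tested. Leaving out 1 of the 4 libraries at a time, between 0 and 15 members were called higher and between 0 and 18 lower. The log2 fold change over the 4 libraries ran from -0.26 to 2.22 for IFIT1, from -2.24 to 1.47 for MX1, from -0.49 to 1.14 for ISG15 and from -1.43 to 1.16 for IFI6. Of the 55 tested members, 19 changed sign over the 4 libraries without SiCIRBP_1, 22 without SiCIRBP_3, 4 without NC_2 and 5 without NC_3. Over the 6 libraries, 27 changed sign without SiCIRBP_2 and 1 without SiCIRBP_3. RLE size factors changed no call and no sign. The share of members with a match to the response element was 72.7% for the core letters and 40.9% for the longer form. Samples with the same replicate number did not deviate together (correlations of -0.118, 0.00606 and -0.0264), and with the number as a replicate block over the 6 libraries 0 members were called higher and 0 lower, with a median log2 fold change of 0.85. Over the 4 libraries no paired analysis was possible because the groups shared 1 number. Counting depth limits GBP2 and the interferon genes, which had few or 0 counts.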
